A study of Homo sapiens with 3 samples.

Results

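The forkhead transcription factors were examined in C33A cells, a human cervical carcinoma line free of papillomavirus DNA, in 3 RNA samples of untreated, exponentially growing cells with 1 Affymetrix Human Gene 1.0 ST array each. Nothing states that the 3 came from separate cultures, so that the SD measures the spread between these samples, which may be technical. The cells were grown in DMEM with 7% fetal bovine serum, penicillin and streptomycin, and they represent a single cell line in a single condition, so the arrays hold no contrast. Members were taken by name, as every gene whose symbol in the platform annotation starts with FOX, a letter from A to S and a digit, leaving out FOXM1. This gave 39 of the 18417 genes measured, namely 38 protein-coding genes and the antisense transcript FOXN3-AS2, each read by 1 probe set. Values are log2 intensities, so that a difference of 1 is a doubling of signal, and are given for samples 1, 2 and 3 in that order or as the mean ± SD over the 3 samples (n = 3). The number of arrays limits the precision, and in bulk RNA fewer expressing cells and less RNA per cell cannot be told apart.

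Forkhead proteins share a winged-helix DNA-binding domain and are divided into subclasses, each with its own letter, by the sequence of that domain. Some, such as the FOXA factors, open compacted chromatin during the development of endodermal organs, while the FOXO factors respond to insulin and growth factors and leave the nucleus when AKT phosphorylates them. Many single members are known from 1 lineage, such as FOXP3 from regulatory T cells, FOXJ1 from multiciliated cells and FOXN1 from the thymus, while close relatives of these are broadly expressed. The study examined the part of the chromatin remodeller CHD8 in switching on S-phase genes through E2F factors, largely in another cell line. It also asked which promoters CHD8 binds in C33A cells and how that binding relates to transcript level, and the arrays supply the level.

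Forkhead genes spanned a wide range of transcript levels in C33A cells, from FOXK2 at 10.26 ± 0.03 down to FOXP2 at 3.33 ± 0.30, a difference of 6.93 on the log2 scale. The median over the 39 genes was 6.54, with an interquartile range of 6.22 to 7.78, against a median of 6.91 and a range of 5.18 to 8.68 for all genes. A level counted as above background when it exceeded 6.41, the 95th percentile of 480 genes from families with little expression outside specialised tissues (silent families hereafter), namely beta-defensins, keratin-associated proteins and the receptors of taste and smell. By this measure 23 forkhead genes (59.0%) were above background, against 56.5% of all genes, so that at this bound the share of the family was near that of the array as a whole. At other bounds, given with the genes near background, it was not. Of the members, 8 (20.5%) lay in the high tertile, the highest of 3 equal groups of genes ranked by level, which started at 8.14 and held 33.33% of all genes. A further 26 lay in the medium tertile and 5 in the low tertile, which ended at 5.74. Signal also depends on the sequence of the probes, so that the order of genes is approximate.

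**Figure D1:**
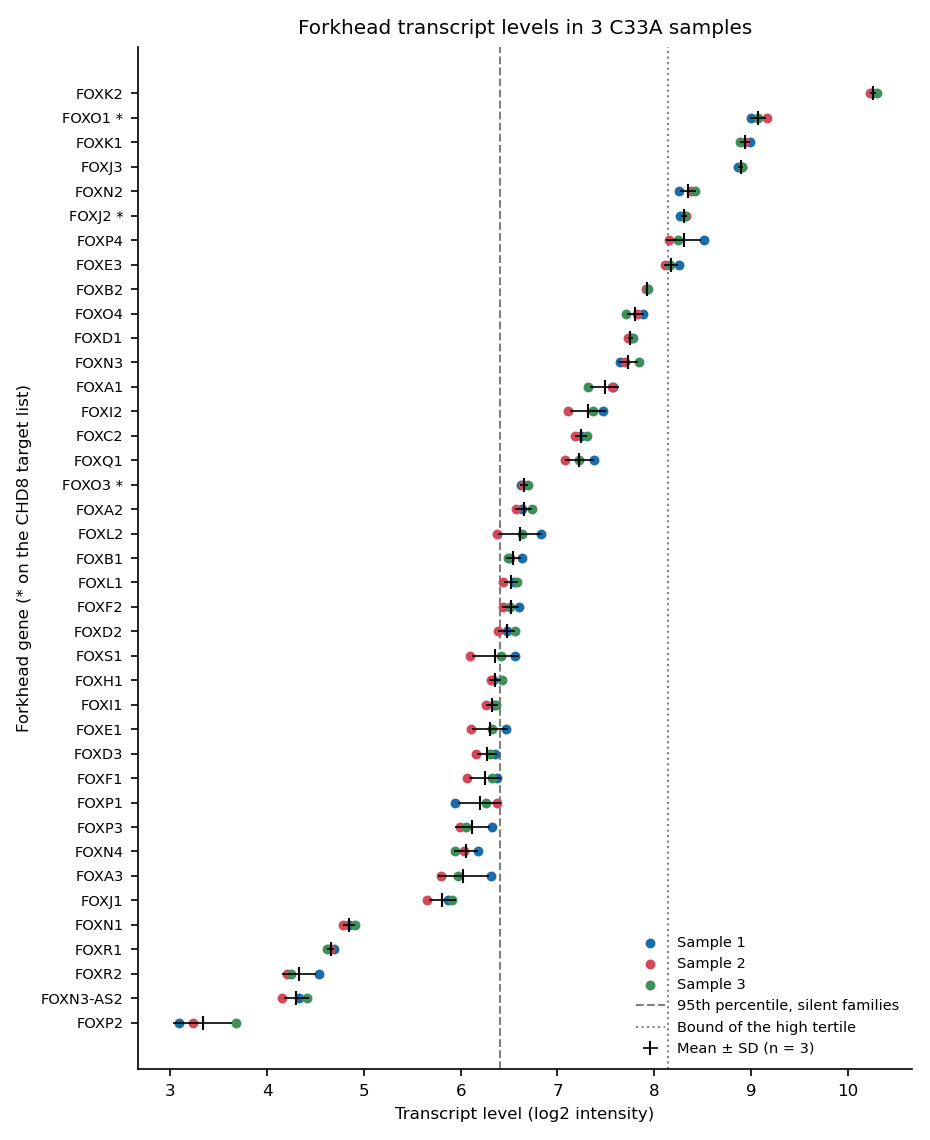
Transcript level of the 39 forkhead genes (y axis, highest mean first) in log2 intensity (x axis), with a point for each sample, the mean and the SD (n = 3); the dashed and dotted lines mark the background bound of 6.41 and the bound of the high tertile at 8.14. FOXK2 stands apart at 10.26, and a column of genes crowds about the background bound.

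The highest forkhead genes belonged to the FOXK, FOXO and FOXJ subclasses. FOXK2, a factor that works with FOXK1 in repressing transcription and in nutrient-dependent control of metabolism, was at 10.25, 10.23 and 10.30. It was higher than every other member in each of the 3 samples. FOXO1, an effector of insulin signalling that is restrained by AKT, followed at 9.0, 9.16 and 9.07. FOXK1 was at 8.99, 8.94 and 8.88, and its range overlapped that of FOXJ3, which was at 8.86, 8.91 and 8.91. These genes lay well inside the high tertile.

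The other members of the high tertile sat close to its lower bound. FOXN2 was at 8.25, 8.38 and 8.42. FOXJ2, a broadly expressed transcriptional activator, was at 8.27, 8.33 and 8.32. FOXP4, a factor of lung and neural development that binds DNA as a dimer, was at 8.51, 8.16 and 8.24. The ranges of FOXN2, FOXJ2 and FOXP4 overlapped, so that their order was not resolved. FOXE3, known from the lens of the eye, was at 8.25, 8.11 and 8.16, with 1 sample below the bound of the tertile. With the 3 highest deciles as the high group in place of the high tertile, 4 of 39 members were left in it, FOXK2, FOXO1, FOXK1 and FOXJ3. This was a smaller share than the 3 in 10 of all genes that these deciles hold.

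The 250 bases before the first listed start site are shown for FOXK2, as the highest member, for FOXO1, FOXJ2 and FOXO3, as the members on the study's list of CHD8 target genes, and for FOXP2, as the lowest member. Sequences are from RefSeq (GRCh38.p14) and read 5′ to 3′ on the strand of the gene, with CpG dinucleotides in capitals. They lie at chr17:82519482-82519731 (plus strand) for FOXK2, chr13:40666642-40666891 (minus) for FOXO1, chr12:8032466-8032715 (plus) for FOXJ2, chr6:108559575-108559824 (plus) for FOXO3 and chr7:114414565-114414814 (plus) for FOXP2. For FOXO3 the window is the first of 4 listed and for FOXP2 the first of 2.
FOXK2: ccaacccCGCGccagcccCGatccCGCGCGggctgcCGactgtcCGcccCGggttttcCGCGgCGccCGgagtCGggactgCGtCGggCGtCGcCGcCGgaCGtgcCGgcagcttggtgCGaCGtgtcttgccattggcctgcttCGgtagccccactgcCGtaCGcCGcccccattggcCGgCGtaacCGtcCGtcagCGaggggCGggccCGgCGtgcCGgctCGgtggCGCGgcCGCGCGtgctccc
FOXO1: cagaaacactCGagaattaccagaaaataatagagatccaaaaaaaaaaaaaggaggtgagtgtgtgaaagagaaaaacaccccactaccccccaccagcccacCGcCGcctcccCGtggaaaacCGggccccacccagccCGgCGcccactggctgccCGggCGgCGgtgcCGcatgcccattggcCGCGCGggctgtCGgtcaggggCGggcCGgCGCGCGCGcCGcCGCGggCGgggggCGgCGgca
FOXJ2: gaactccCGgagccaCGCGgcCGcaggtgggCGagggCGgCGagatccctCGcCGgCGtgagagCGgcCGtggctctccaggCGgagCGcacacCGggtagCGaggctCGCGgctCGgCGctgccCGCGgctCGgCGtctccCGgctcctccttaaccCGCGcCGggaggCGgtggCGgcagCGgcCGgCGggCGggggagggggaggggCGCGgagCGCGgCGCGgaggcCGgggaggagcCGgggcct
FOXO3: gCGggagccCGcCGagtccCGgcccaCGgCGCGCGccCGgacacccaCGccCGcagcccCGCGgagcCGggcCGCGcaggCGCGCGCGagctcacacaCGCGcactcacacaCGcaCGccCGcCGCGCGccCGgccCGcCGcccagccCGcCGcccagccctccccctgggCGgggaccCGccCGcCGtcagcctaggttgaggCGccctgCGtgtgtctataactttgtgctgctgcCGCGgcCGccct
FOXP2: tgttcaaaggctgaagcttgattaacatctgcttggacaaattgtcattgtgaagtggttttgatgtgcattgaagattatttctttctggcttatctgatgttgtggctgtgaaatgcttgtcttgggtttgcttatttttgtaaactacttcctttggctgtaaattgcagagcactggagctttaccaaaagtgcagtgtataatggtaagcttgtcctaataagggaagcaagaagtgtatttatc

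The windows of FOXK2, FOXJ2 and FOXO3 held 43, 42 and 42 CpG dinucleotides and that of FOXO1 held 27, nearly all of them in its 3′ part. The first of the 2 windows listed for FOXP2 held 0. The other listed windows of FOXP2 and FOXO3 were not counted, so the value for FOXP2 may not describe its other start. Over the 30 members with a window in the RefSeq table, the median was 21 CpG dinucleotides and 67.2% G or C, against 11 and 58% over the first windows of all 27305 genes in that table. Among these members, the 18 above background had a median of 24.5 CpG dinucleotides and the other 12 a median of 14. Of the 8 members of the high tertile 6 have a window, and among these FOXJ3 had the fewest CpG dinucleotides, 8, with 40.8% G or C. The first windows were also searched for short words on both strands, none of which contains another. For these words and for the medians above, all genes means the 27305 genes of the RefSeq table. That table includes noncoding genes and is not limited to the 18417 genes measured. CCAAT was present in 6 members (20% of windows, against 33% of all genes), among them FOXK2 and FOXO1, where the printed strand reads ATTGG. TTTCGCGC or TTTGGCGC, the core read by E2F factors, was present in the windows of FOXJ3 and FOXN1 alone (6.67%, against 0.996%). CCGGAA, a core of ETS sites, was present in FOXR1 alone (3.33%, against 14.8%). TATAAA was present in FOXP3, FOXA3, FOXR2 and FOXN3-AS2 (13.3%, against 11.1%), none of which was above background. GTAAACA, a forkhead core, was present in none of the 30 windows, against 2.98% of all genes. A match describes these letters only, and its absence says nothing of a factor.

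The study's list of CHD8 targets holds 3 of the 39 forkhead genes (7.69%), against 9.63% of all genes measured. They are FOXO1, FOXJ2 and FOXO3, and the mean level was 9.08 ± 0.08 for FOXO1 and 8.31 ± 0.03 for FOXJ2, both in the high tertile. FOXK2, FOXK1 and FOXJ3, of like or higher level, are not on that list. FOXO3 was lower, at 6.62, 6.64 and 6.70 by its own probe set, which is in the medium tertile and above the background bound of each array.

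FOXO3 was read very differently by a second probe set that it shares with FOXO3B, a near-identical copy of FOXO3 on another chromosome. The shared probe set was at 10.84, 10.97 and 10.86, above FOXK2 in every sample. The shared minus the own signal was 4.22, 4.33 and 4.16, a mean of 4.23 ± 0.08. The shared probe set cannot be assigned to either gene, so the level of FOXO3 is uncertain. If both probe sets were averaged, a choice made after seeing the data, FOXO3 would be at 8.77 and the high tertile would hold 9 members. FOXO4, the remaining FOXO gene measured, was at 7.80 ± 0.09. All 3 measured members of the subclass were thus above background, FOXO3 by its own probe set.

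The FOXD4 genes are also near-identical copies, and 7 probe sets are each listed for the same 5 of them. Their means ran from 6.10 to 6.74 and 4 of the 7 were above background. A pair of these probe sets had the same values on all arrays, 6.78, 6.63 and 6.63. No single FOXD4 copy can be given a level from these probe sets, and they are not among the 39 members.

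**Figure D2:**
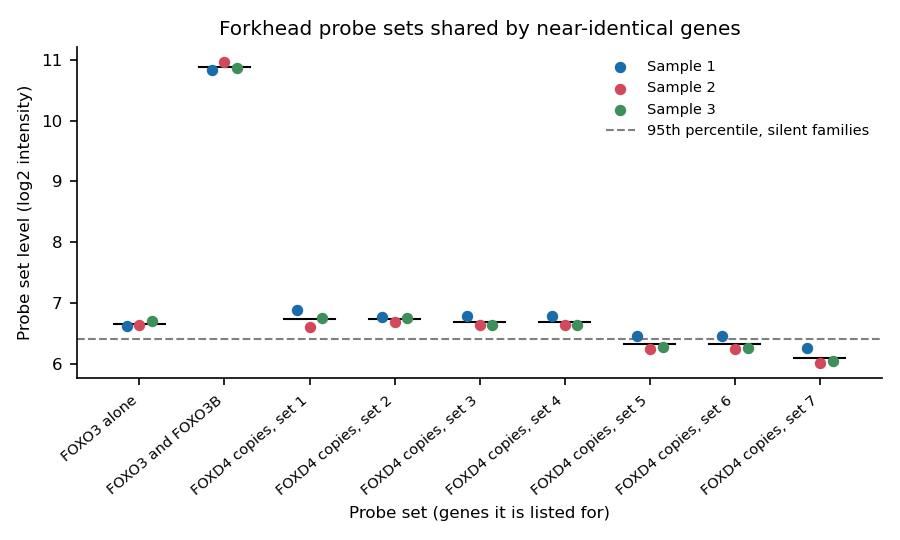
Level in log2 intensity (y axis) of the FOXO3 probe set and of the 8 forkhead probe sets listed for more than 1 gene (x axis), with a point for each sample and a line at the mean; the dashed line is the background bound of 6.41. The probe set shared by FOXO3 and FOXO3B lies 4.23 above that of FOXO3 alone, while those of the FOXD4 copies lie between 6.10 and 6.74.

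The subclasses that hold broadly expressed members were described beside the other subclasses. In the FOXJ, FOXK, FOXN, FOXO and FOXP subclasses, 10 of 16 genes (62.5%) were above background, against 56.5% of all genes, and 7 (43.8%) were in the high tertile, against 33.33%, with a median of 7.77. In the other subclasses, 13 of 22 genes (59.1%) were above background, and FOXE3 alone (4.55%) was in the high tertile, with a median of 6.52. This division was made with the levels known and was not tested. The first set was also the more spread, with levels from 3.33 to 10.26, a width of 6.93, against 4.33 to 8.18 in the second.

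Within these subclasses close relatives differed in level. Among FOXN genes, FOXN2 at 8.35 ± 0.09 and FOXN3, a checkpoint-linked repressor, at 7.73 ± 0.10 were above background. FOXN4, known from the retina, was at 6.05 ± 0.12 and FOXN1 at 4.85 ± 0.06. FOXP4 was above background at 8.30 ± 0.18, while FOXP1, which is found in many tissues, was at 5.94, 6.38 and 6.26 and exceeded the bound of the array in sample 2 alone. FOXP3 was at 6.12 ± 0.18. FOXJ1, which drives the genes of motile cilia, was at 5.81 ± 0.14 and below the bound in each sample, unlike FOXJ2 and FOXJ3.

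Among members of the other subclasses, several exceeded background in all 3 samples. FOXB2, a factor of the developing nervous system, was at 7.93 ± 0.01, the smallest spread of any member. FOXD1, which marks stromal precursors of the kidney, was at 7.75 ± 0.03, and FOXA1, which opens chromatin for steroid receptors, at 7.49 ± 0.15. FOXI2 was at 7.31 ± 0.18, FOXC2, a factor of lymphatic vessels, at 7.25 ± 0.06 and FOXQ1 at 7.23 ± 0.15. The ranges of FOXA1, FOXI2, FOXC2 and FOXQ1 overlapped from each to the next, so that their order was not resolved.

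Below FOXQ1 the forkhead genes crowded about the background bound. Within 0.5 of it lay 17 of 39 members (43.6%), against 14.1% of all genes. Just above were FOXL1, a factor of gut mesenchyme, at 6.55, 6.44 and 6.58, FOXF2 at 6.61, 6.43 and 6.51, and FOXD2 at 6.48, 6.38 and 6.56. Just below were FOXS1 at 6.57, 6.09 and 6.41, FOXH1, the partner of SMAD proteins in nodal signalling, at 6.33, 6.31 and 6.42, and FOXI1 at 6.35, 6.26 and 6.36. The range of FOXS1 overlapped those of the other 5, and FOXD2 and FOXH1 overlapped as well, so that the side of the bound on which a gene falls is not firm. FOXA2, FOXL2 and FOXB1 lay between 6.54 and 6.65 above the bound, and FOXE1, FOXD3, FOXF1 and FOXA3 between 6.03 and 6.30 below it. Taken array by array, 23 members (59.0%) exceeded the bound on every array, against 55.2% of all genes, 13 on none and 3, FOXS1, FOXE1 and FOXP1, on 1 array. With the 90th percentile of the silent families as bound, at 5.74, 34 members (87.2%) were above it, against 66.6% of all genes. With the 99th percentile, at 7.85, there were 9 members (23.1%), from FOXK2 down to FOXB2, against 37.7% of all genes. Leaving the keratin-associated proteins out of the silent families lowered the 95th percentile to 5.51, and 34 members were above it, against 70.2% of all genes. The family was thus over or under the share of all genes by the bound chosen.

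**Figure D3:**
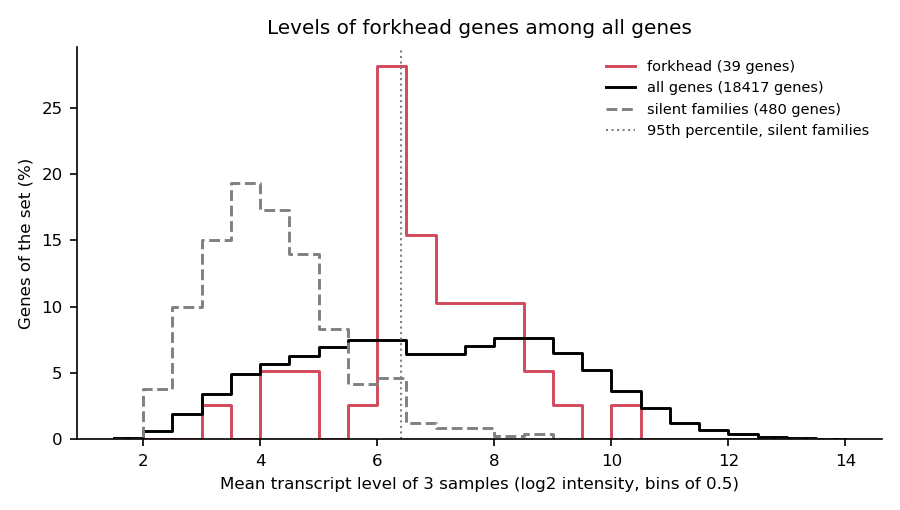
Percentage of genes (y axis) in each 0.5-wide bin of mean log2 level (x axis) for the 39 forkhead genes, all 18417 genes and the 480 genes of the silent families, with the background bound dotted. The forkhead genes peak in the bin from 6 to 6.5, which holds 11 of them (28.2%), while the silent families have a median of 4.07.

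The lowest members were far below background in every sample. FOXN1, a factor of thymic epithelium and hair follicles, was at 4.85, 4.79 and 4.90. FOXR1 was at 4.70, 4.65 and 4.62 and FOXR2, its relative on the X chromosome, at 4.53, 4.21 and 4.25. The antisense transcript FOXN3-AS2 was at 4.33, 4.16 and 4.41, well below FOXN3 itself. FOXP2, known from neural circuits of speech, was at 3.09, 3.23 and 3.67, with no overlap with any other member. In the whole order of 39 genes, the ranges of neighbours overlapped in 27 of 38 pairs and were apart in 11.

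Forkhead genes also lie next to each other on chromosomes, with no other protein-coding gene between them in the RefSeq table. FOXE3 at 8.18 ± 0.07 is followed by FOXD2 at 6.47 ± 0.09 on chromosome 1, and FOXC2 at 7.25 ± 0.06 by FOXL1 at 6.52 ± 0.08 on chromosome 16. Each pair is read by different probes, so that these values stand as a description.

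The samples were close to each other for most forkhead genes. The median SD over samples was 0.09 for the members and 0.08 for all genes, and the arrays correlated at 0.993 to 0.994 (Pearson's r over all probe sets). Since spread falls as signal rises, each SD was set against the median SD of genes in the same decile of level, and 21 members (53.8%) exceeded it, against 50% of all genes. The SD was over 2 times that median for 7 members (17.9%), against 10.8% of all genes, and over 3 times for 0 members, against 1.99%. The 7 were FOXP4, FOXA3, FOXS1, FOXL2, FOXI2, FOXP1 and FOXP2. Their ratios ran from 2.21 times for FOXP2 to 2.66 times for FOXP4, where sample 1 was above the others. FOXA3, a factor of liver and gut, was at 6.31, 5.80 and 5.97 and FOXL2, a factor of the ovary, at 6.83, 6.38 and 6.63.

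Sample 2 gave the lowest value for 25 of 39 members (64.1%), against 35.8% of all genes and 41.5% of the silent families. Sample 1 was lowest for 8 members and sample 3 for 6, against 31.6% and 32.5% of all genes. The median of the members was 6.62, 6.44 and 6.58 in samples 1, 2 and 3, while the median of all genes was 6.92, 6.92 and 6.90. The background bound taken on each array was 6.39, 6.33 and 6.45. This pattern was noticed after the values were seen, members on the same array are not independent, and the part of any array-wide effect in it was not tested.

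**Figure D4:**
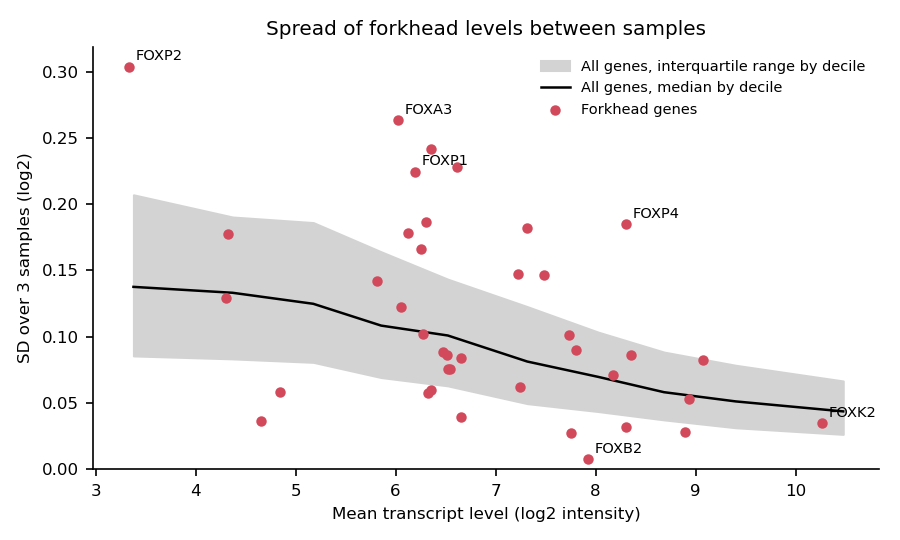
SD over 3 samples in log2 units (y axis) against mean log2 level (x axis) for the 39 forkhead genes, with the median and interquartile range of all genes in each decile of level. FOXP4 lies at 2.66 times the median of its decile and FOXB2 at 0.11 times.

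Genes for proteins that bind or modify FOXO factors had high levels in C33A cells. Of 22, 21 (95.5%) were above background and 20 (90.9%) in the high tertile, against 56.5% and 33.33% of all genes, and their median was 10.29. The highest were YWHAE at 12.40 ± 0.06 and YWHAQ at 12.15 ± 0.03, adaptors that hold phosphorylated FOXO in the cytoplasm, and the lowest was their relative SFN at 5.96 ± 0.18. Of 15 measured genes of the upstream pathway, 12 (80%) were above background and 6 (40%) in the high tertile, led by AKT1 at 10.46 ± 0.01 and the receptor substrate IRS1 at 10.01 ± 0.08, with the phosphatase PHLPP1 lowest at 5.20 ± 0.05.

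Known FOXO target genes were divided. Of 30, 18 (60.0%) were above background, near the 56.5% of all genes, and 12 (40%) were in the high tertile, against 33.33%. CITED2 at 11.12 ± 0.02 and the mitophagy receptor BNIP3 at 10.16 ± 0.05 were highest, and the death ligand TNFSF10 at 3.41 ± 0.01 was lowest. Growth-arrest genes lay on both sides, with the inhibitor CDKN1B at 8.93 ± 0.09 and its relative CDKN1A at 5.93 ± 0.02. PCK1 and G6PC1, enzymes of glucose production in the liver, were at 5.10 ± 0.04 and 4.06 ± 0.30.

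Partners of the FOXK and FOXP factors were mostly of high level. Of 17 FOXK partners 16 (94.1%) were above background and 13 (76.5%) in the high tertile, against 56.5% and 33.33% of all genes, led by the deacetylases HDAC1 at 11.50 ± 0.03 and HDAC2 at 10.86 ± 0.03, and ASXL3 was lowest at 4.25 ± 0.22. HCFC1, a host cell factor that the study connects with CHD8, was at 9.94 ± 0.05 and the serum response factor SRF at 9.59 ± 0.01. Of 13 FOXP partners 10 (76.9%) were above background, all of them in the high tertile, with HDAC1 and the nuclear receptor NR2F1 at 11.27 ± 0.03 highest and the chromatin organizer SATB1 lowest at 3.56 ± 0.09. HDAC1, HDAC2 and YY1 are on both lists.

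At the bound of 6.41, genes of the lineages that forkhead factors serve were above background less often than all genes (56.5%) in 6 of 7 lists. The counts carry no test, and the thymic list, at 45.5%, was the nearest of the 6 to that share. Among FOXA-linked endoderm and luminal genes 4 of 16 (25%) were above background. KRT18 at 7.75 ± 0.11 and GATA6 at 7.07 ± 0.14 were highest and albumin (ALB) at 3.01 ± 0.04 was lowest. Of the 4, TFF1 at 6.41 ± 0.09 exceeded the bound by less than its SD. Among motile cilium genes 2 of 18 (11.1%) were above, the tubulin TUBB4B at 12.52 ± 0.02, which dividing cells use as well, and RFX2 at 7.15 ± 0.16, with SPAG17 at 2.90 ± 0.08 lowest. FOXJ1 is itself on this list. The nodal pathway of FOXH1, the exception, had 11 of 14 genes (78.6%) above, led by DRAP1 at 10.61 ± 0.03 and SMAD4 at 10.38 ± 0.01. In the high tertile, however, lay 4 of the 14 (28.6%), against 33.33% of all genes. The lists were counted at the background bound of 6.41 alone, so that the 6 lower shares and the exception hold for that bound only. The ligand NODAL was at 4.65 ± 0.09 and GDF3 was lowest at 3.62 ± 0.07.

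The remaining lineage lists gave 1 of 9 thyroid genes (11.1%) above background (PAX8 at 6.50 ± 0.14, then SLC5A5 at 5.72 ± 0.09, TSHR lowest at 3.66 ± 0.11) and 5 of 11 thymic epithelial genes (45.5%), with the protease CTSV at 8.67 ± 0.09 and PAX9 at 6.96 ± 0.06 highest and PSMB11 lowest at 4.34 ± 0.11. Of 11 granulosa genes 3 (27.3%) were above, with AMH at 7.45 ± 0.11 and INHBB at 6.97 ± 0.03 highest and FSHR lowest at 3.68 ± 0.20. Of 10 genes of ionocytes and intercalated cells 1 (10%) was above, the proton pump subunit ATP6V1B1 at 6.67 ± 0.02, followed by SLC4A9 at 5.53 ± 0.25, with the chloride channel CFTR lowest at 3.19 ± 0.08. These lists describe levels in 1 condition and carry no test.

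**Figure D5:**
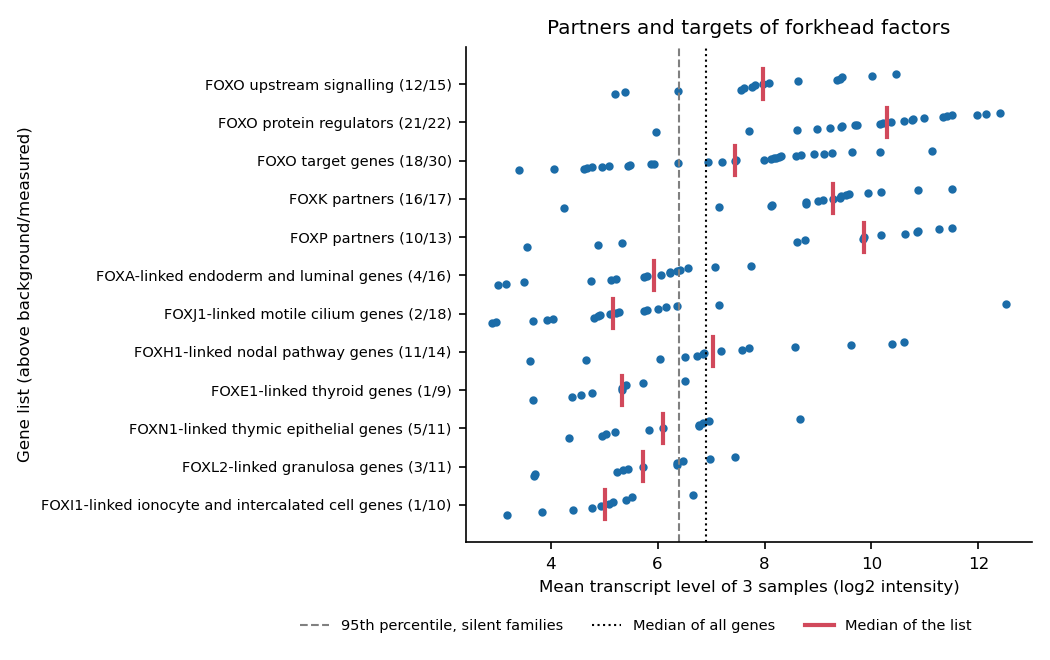
Mean log2 level over 3 samples (x axis) of each measured gene in 12 lists of partners, targets and lineage genes of forkhead factors (y axis, with the number above background over the number measured), with the median of each list in red. Lists of FOXO regulators and FOXK partners centre at 10.29 and 9.27, while those of single lineages centre below the background bound, apart from the nodal list at 7.03.

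The label of the cells was set against marker genes. Of 14 measured epithelial markers 4 (28.6%) were above background, against 56.5% of all genes. They were KRT18, CLDN3 at 7.46 ± 0.08, KRT14 at 6.86 ± 0.08 and MUC1 at 6.43 ± 0.04. EPCAM at 4.52 ± 0.29 and CDH1 at 4.95 ± 0.09 were below the bound, so that defining epithelial markers were at background in this carcinoma line. Above background were also 3 of 12 fibroblast (25%), 3 of 11 leukocyte (27.3%), 1 of 10 endothelial (10%) and 3 of 10 neural markers (30%). The epithelial share was near the fibroblast, leukocyte and neural shares, so these counts do not set the epithelial label apart. The collagen gene COL3A1 at 11.36 ± 0.06 and PTPRC at 8.82 ± 0.11 were the only markers of the 5 lists in the high tertile, and of the other fibroblast markers THY1 at 7.59 ± 0.13 and COL1A1 at 7.24 ± 0.14 were above background and 9 of 12 were not, down to LUM at 2.52 ± 0.14.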

How the data were processed

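RNA of 3 C33A samples was read on 1 array each. The authors normalized the raw data by Robust Multichip Average (RMA), with oneChannelGUI, and deposited log2 intensities per probe set. Software versions were not given in the sources used here. RMA gives the arrays a common distribution, so a shift shared by all genes cannot be seen, and no detection call comes with it. Of 33297 probe sets, 19460 carry 1 symbol in the platform annotation and were averaged per gene, 1754 carry more than 1, and for 12083 the annotation lists no gene. Names were updated through RefSeq (GRCh38.p14), where 18392 of 18417 genes were found. Protein-coding genes there that meet the naming rule number 51, of which 38 have a probe set of their own and the others are not analysed here apart from shared probe sets.

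All samples form 1 group, so no test was made. Members, lists and bounds were chosen with earlier results of these data known. Named are all members by subclass and, for each list, the 2 highest and the lowest gene, plus CDKN1B, HCFC1 and SRF, which the study names. CDKN1A, PCK1, G6PC1, NODAL, TFF1 and the named markers were picked after their values were seen. The CHD8 target list of the study served as annotation only, matched by accession, symbol or synonym. The alternatives left out each array, changed the probe set rule, the genes kept, the centring, the names, the ranking or the background. The functions were tested on simulated data. Python 3.11.15, NumPy 2.4.6, pandas 2.3.3 and matplotlib 3.10.9 were used.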

Additional observations from a re-analysis of the deposited data

Results flagged for a closer look

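Probe sets listed for several forkhead genes lie outside the main measurement, and 5 of them had a mean above the background bound of 6.41. The probe set shared by FOXO3 and FOXO3B was at 10.89 ± 0.07 (SD, n = 3 samples). Of the probe sets shared by the FOXD4 copies, the 4 above the bound had means of 6.74, 6.73, 6.68 and 6.68. The part of each gene in these signals was not tested.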

How the results depend on the processing

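The count of forkhead genes above background, 23, fell to 9 with the 99th percentile of the silent families as bound and was 34 both with the 90th and with the keratin-associated proteins left out of the silent families. It was 23 or 24 under the other alternatives. The count in the high tertile, 8 of 39, fell to 4 of 39 with the 3 highest deciles, which hold 3 in 10 of all genes. Leaving out each array in turn gave 23 to 24 genes above background, 7 to 8 in the high tertile, a median level of 6.51 to 6.57 and a median SD of 0.0701 to 0.0861. The count of FOXA-linked genes above background, 4, was 2 when only genes with 1 probe set were kept, an alternative that tests fewer genes. It was 3 without sample 1, with the highest probe set of each gene and with protein-coding genes alone. The counts of the other 11 lists stayed within 1.5 times, and the lists were not counted at the other bounds. Of 312 recomputed levels of single members, 311 moved by less than 1 SD, and the exception was FOXO3, which moved to 8.77 with its shared probe set. That alternative and a background of protein-coding genes alone were chosen after seeing the data. No paired analysis was possible because all samples belong to 1 group. The arrays carry no detection call, so levels near the bound cannot be read as presence or absence, and 3 arrays limit the precision.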
